A study of Mus musculus with 6 samples.

Results

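MicroRNA miR-142a is cut from 1 precursor hairpin into a 5p and a 3p arm, and these 2 arms (mmu-miR-142a-5p and mmu-miR-142a-3p) are described here, chosen by name from the 911 mature miRNA references counted in the series. Both arms had reads in all 6 libraries. The libraries are small RNA sequencing of macrophages grown from mouse bone marrow, 3 from ApoE-knockout (EKO) mice and 3 from wild-type (WT) mice. EKO mice lack apolipoprotein E, which carries lipids and is released by macrophages, and the study set out to find miRNAs that differ without it. All marrow came from male mice of 6 to 12 weeks and was cultured with M-CSF, the growth factor that drives macrophage differentiation (25 ng/mL, every 2 days for 6 days), so both genotypes had this treatment. The design text states that the replicates are biological. The labels give neither the knockout allele nor the strain, and the tables hold no Apoe mRNA, so the genotype could not be checked from them.

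A miRNA is loaded into an Argonaute protein and pairs with target transcripts mainly through its seed, bases 2 to 8 from its 5′ end. In most hairpins 1 arm is kept and the other is degraded, whereas miR-142 is known as a miRNA whose arms are both loaded and active. It is expressed throughout the blood lineages and hardly at all in other tissues, and mice without it have defects in lymphocytes, dendritic cells and platelets. In mice the 3p arm is known to act on the transcript of Wasl, an actin regulator.

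The sequences below, from RefSeq on GRCm38.p6, show the arms and the antisense miRNA of the same locus. Capitals mark the seed in the 3 mature sequences, and the mature arms in the hairpin.
mmu-miR-142a-5p: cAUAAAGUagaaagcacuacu
mmu-miR-142a-3p: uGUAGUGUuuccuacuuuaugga
mmu-miR-142b: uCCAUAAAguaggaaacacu
Mir142 hairpin: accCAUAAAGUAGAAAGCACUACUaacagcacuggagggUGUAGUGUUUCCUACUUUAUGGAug
The hairpin of 64 bases lies on the plus strand at chr11:87756864-87756927 (GRCm38.p6), inside the intron of the long non-coding transcript Mir142hg in GENCODE M21, which uses the same assembly. The 5p arm spans bases 4 to 24 of the hairpin and the 3p arm bases 40 to 62, with 15 bases between them. In the structure that RNAfold predicts, of -26.9 kcal/mol, 19 bases of the 5p arm pair with the 3p arm. The arms have different seeds, and no other mature mouse miRNA in the RefSeq table has the seed of either. Among these sequences no seed family therefore adds further members. Of the 911 references counted, 763 had a sequence there, and the seeds of the others were not compared.

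The hairpin is nearly its own reverse complement, and mmu-miR-142b is read from the other strand of it. The listed sequence of mmu-miR-142b is contained whole in the reverse complement of mmu-miR-142a-3p. Aligned over 18 bases, mmu-miR-142b and mmu-miR-142a-5p differ by 2 substitutions, A11G and G14A, with the miR-142a-5p base first and positions counted from 1 at its 5′ end. Reads matching several references were few. The 3p arm had none, and the 5p arm had between 2 and 10.5 reads per library credited to other references, at most 0.0973% of its reads. Counts of mmu-miR-142b were 28, 19 and 11 reads in the EKO libraries, against 24, 24 and 69 reads in the WT libraries. These numbers overlapped and came to between 0.124% and 0.533% of the 5p reads of the same library, so the antisense miRNA was close to the detection limit. EKO over WT, its log2 value was -0.79 with an SE of 1.37 (adjusted p = 0.851 in edgeR).

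Libraries held 34651537 to 39532569 reads on mature miRNAs in EKO and 38440317 to 41331629 in WT, and the number of references with at least 1 read was 543 to 591 in EKO and 666 to 698 in WT. Molecular barcodes were not counted in the deposited tables, so PCR copies remain in the reads. Replicates of 1 genotype differed by far more than read-counting error. In bulk RNA, fewer cells of a type and less of a miRNA per cell cannot be told apart.

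Of the arms, 3p was the more abundant in every library. mmu-miR-142a-3p had 22704, 22670 and 33913 reads in the EKO libraries, against 33351, 37619 and 49143 reads in the WT libraries. mmu-miR-142a-5p had 5258, 6245 and 8870.5 reads in the EKO libraries, against 10263, 10493.5 and 14412.5 reads in the WT libraries, the fractions coming from the authors' division of shared reads. These read numbers are large, so counting error is small beside the differences between replicates. By rank among the references of a library, 3p stood between position 59 and 63 in EKO and between 54 and 61 in WT. The 5p arm stood between position 96 and 104 in EKO and between 87 and 96 in WT. Together the arms took 0.0897% ± 0.0225 of all reads on mature miRNAs in EKO, against 0.128% ± 0.0234 in WT (SD, n = 3 each). Ligation and PCR favour some sequences, so a comparison of level between miRNAs of a library, the arms included, carries that bias.

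EKO and WT macrophages were compared to ask whether either arm differed in level with loss of ApoE. The mean of both arms was lower in EKO, and neither passed the test over all miRNAs. Levels are given in CPM, the reads of a miRNA for a library total of 1e+06 reads on mature miRNAs, scaled by the TMM factors of edgeR. For mmu-miR-142a-5p the EKO libraries had 162.03, 156.02 and 233.8 CPM, against 265, 261 and 336 CPM in the WT libraries. Each EKO value was thus below each WT value. The EKO mean was 184 ± 43.3 CPM and the WT mean 287 ± 42.2 CPM (± SD, n = 3 each). On the log2 scale EKO over WT was -0.64 with an SE of 0.20 (adjusted p = 0.105, edgeR quasi-likelihood test with Benjamini-Hochberg adjustment over 575 miRNAs).

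For mmu-miR-142a-3p the EKO libraries had 699.6, 566 and 894 CPM, against 860.4, 935 and 1145 CPM in the WT libraries. The groups overlapped, since EKO replicate 3 lay above WT replicate 1. The EKO mean was 719.9 ± 165 CPM and the WT mean 979.98 ± 148 CPM (± SD, n = 3 each). On the log2 scale EKO over WT was -0.44 with an SE of 0.19 (adjusted p = 0.220 by the same edgeR test). In each genotype, replicate 3 had the highest value of both arms. The coefficient of variation was 23.5% for 5p and 22.9% for 3p in EKO, and 14.7% and 15.1% in WT. Over the 251 references averaging at least 10 CPM, the median coefficient was 20.5% in EKO and 14.4% in WT, so the arms varied about as much as other miRNAs of the series.

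**Figure D1:**
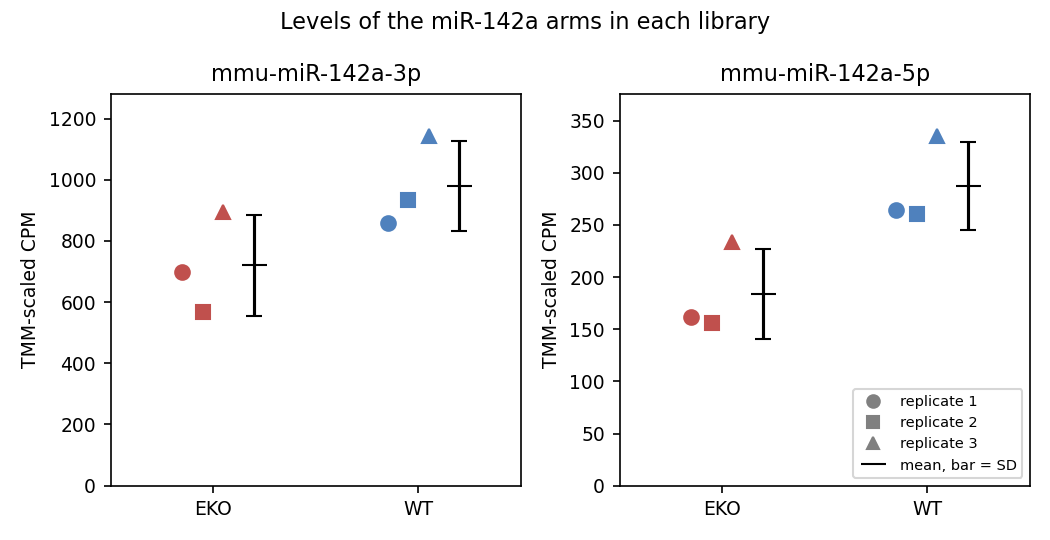
TMM-scaled CPM of each arm in each library (points, shape by replicate) for EKO and WT, with the mean and SD beside them. The 5p values of EKO, 156.02 to 233.8 CPM, lie below those of WT, 261 to 336 CPM, while the 3p values overlap between 860.4 and 894 CPM.

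Among the 575 miRNAs tested 0 passed an adjusted p of 0.05 (0%). At an unadjusted edgeR p under 0.05, 75 were lower in EKO (13%) and 48 higher (8.35%), and both arms were among the lower ones, with an unadjusted edgeR p of 0.0120 for 5p and 0.0464 for 3p. Ordered by p, 5p was at position 63 and 3p at position 121. Non-overlapping groups with lower EKO values, as seen for 5p, occurred in 108 of the 575 miRNAs (18.8%), so this separation was common in the series. The median miRNA stood at -0.16 on the log2 scale (-0.08 with DESeq2 size factors), so each arm was further below 0 than the median. Other tools called some miRNAs, 92 with DESeq2 and 32 with limma-voom. DESeq2 called 5p lower (log2 fold change -0.56, adjusted p = 0.0355), as one of 49 lower among 564 miRNAs given an adjusted p (8.69%), but not 3p (adjusted p = 0.198). Without EKO replicate 3, 5p also passed in edgeR (log2 fold change -0.85, adjusted p = 0.0370). That fit called 45 of 634 miRNAs, 29 of them lower in EKO, against 0 of 575 with all libraries.

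The arms of miR-142a are poor in G and C, and most miRNAs of low GC content had lower values in EKO. The GC content was 33.3% for 5p and 34.8% for 3p. Of the 251 references averaging at least 10 CPM, 221 had a mature sequence in the RefSeq table. These were split into 3 classes by GC content. In the lowest class, 27.3% to 45.5%, 62 of 90 miRNAs (68.9%) had lower values in EKO, with a median log2 fold change of -0.35. In the middle class 27 of 58 had lower values, with a median of 0.02. In the highest class 31 of 73 (42.5%) had lower values, with a median of 0.13. Both arms had the sign that most miRNAs of their GC class had. Of the 221, only 20 had a GC content no higher than that of 3p, both arms included, so the arms lie near the low edge of the trend. When each library's trend with GC content was removed among the miRNAs averaging at least 10 CPM, the log2 fold change of 5p was -0.11 ± 0.16 and that of 3p turned to 0.055 ± 0.14 (SE, adjusted p = 0.672 and 0.805, edgeR quasi-likelihood test). Restricted to the same miRNAs without this correction, they were -0.62 ± 0.20 (adjusted p = 0.0496) and -0.42 ± 0.18 (adjusted p = 0.116, edgeR quasi-likelihood test), where 32 of 251 miRNAs were called lower (12.7%).

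**Figure D2:**
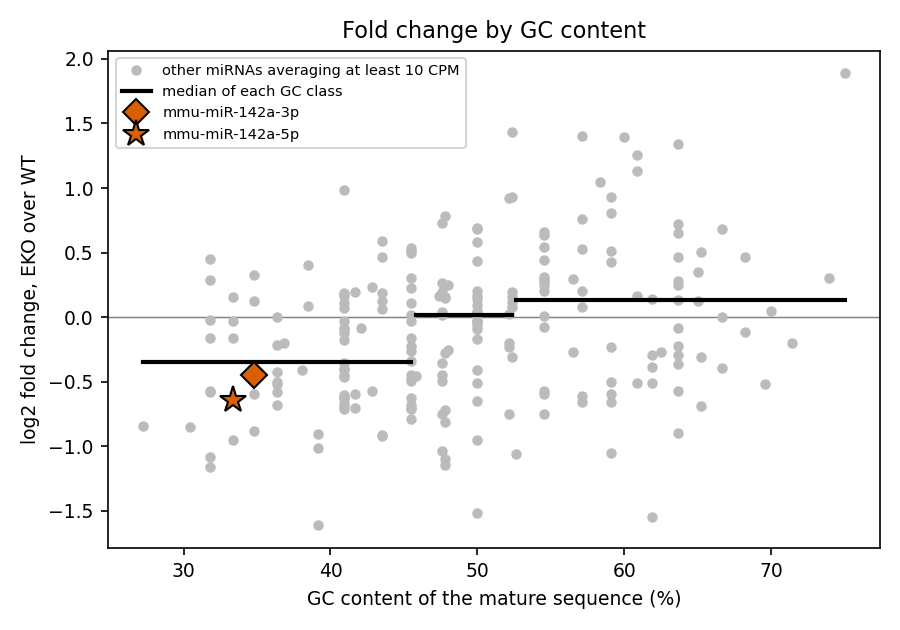
Log2 fold change of EKO over WT (edgeR) against the GC content of the mature sequence for 221 miRNAs averaging at least 10 CPM (grey), with both miR-142a arms marked and the median of each of 3 GC classes as a line. The medians are -0.35, 0.02 and 0.13 from the lowest to the highest class, and both arms lie at the low-GC side, below the median of their class.

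**Figure D3:**
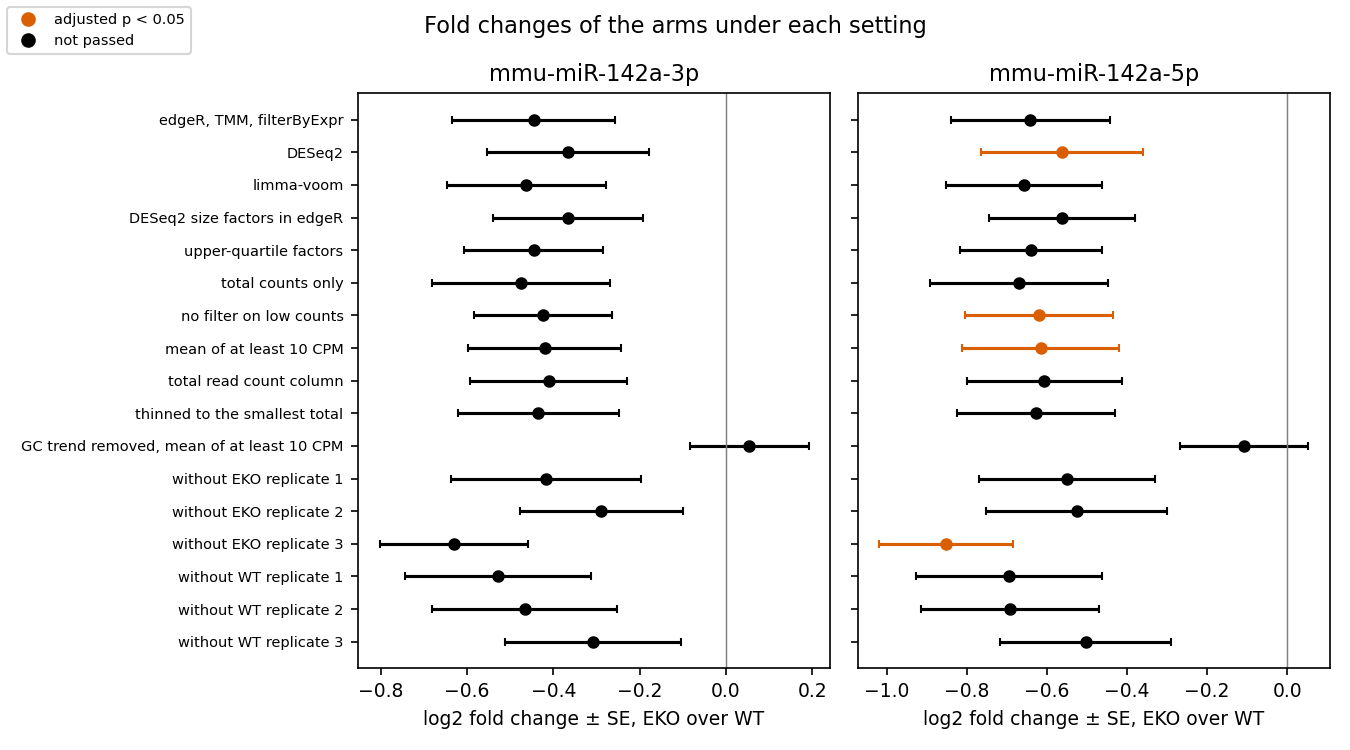
Log2 fold change ± SE of each arm, EKO over WT, with edgeR, TMM scaling and filterByExpr (top) and with each other processing choice, apart from a replicate block. All values of 5p are below 0, and those of 3p are below 0 except 0.055 after removal of the GC trend; orange marks an adjusted p under 0.05.

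The ratio of the arms does not depend on how libraries are scaled, because both arms are read in the same library. The ratio of 5p to 3p reads was 0.232, 0.275 and 0.262 in the EKO libraries, against 0.308, 0.279 and 0.293 in the WT libraries. All EKO ratios were below all WT ratios, though EKO replicate 2 and WT replicate 2 were close together. The mean ratio was 0.256 ± 0.0224 in EKO, against 0.293 ± 0.0144 in WT (SD, n = 3 each), and the two-sided exact permutation p of 0.1 for its log2 value is the smallest that 3 against 3 allows. In percent, 5p made up 20.4% ± 1.43 of the reads of both arms in EKO, against 22.7% ± 0.861 in WT (SD, n = 3 each). In both genotypes 3p thus made up most of the reads of the hairpin.

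Over 118 hairpins with both arms tested, the log2 change of this ratio for miR-142a was -0.20 ± 0.22 (SE, adjusted p = 0.640, limma), with a median of -0.08 over all of them. Of these hairpins 2 passed (1.69%), and ratios that did not overlap and were lower in EKO occurred in 18 (15.3%). The limma error borrows from hairpins whose ratios vary more. The SD of the log2 ratio of miR-142a was 0.13 in EKO and 0.07 in WT, where the median hairpin had 0.85 and 0.50. The 2 arms of miR-142a were also closer in level than those of most hairpins, with an average log2 ratio of -1.87, against a median distance from 0 of 3.84. A smaller distance than that of miR-142a was found for 33 of the 118 hairpins.

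**Figure D4:**
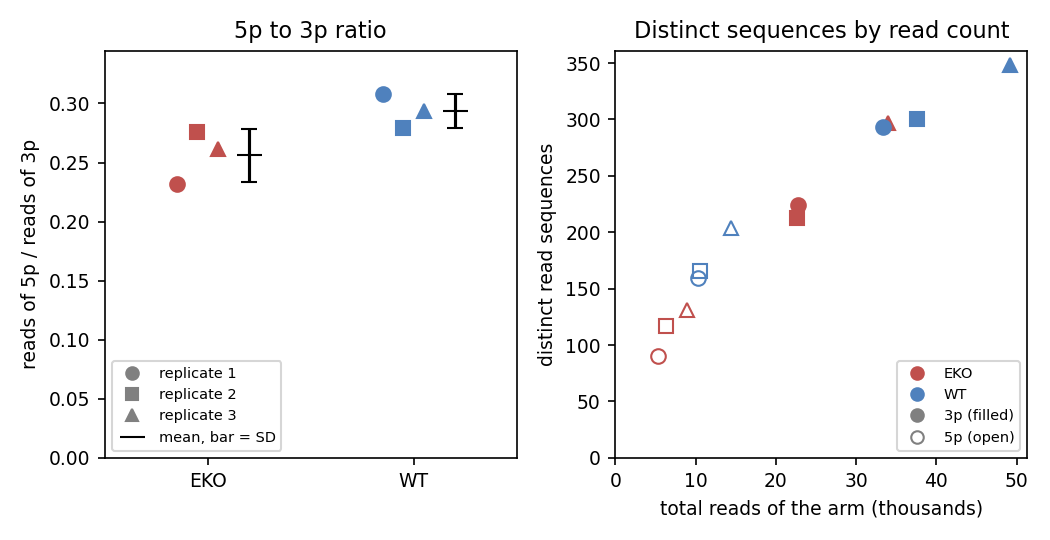
Left, reads of 5p over reads of 3p in each library for EKO and WT, with mean and SD. Right, distinct read sequences against total reads of each arm (filled 3p, open 5p): EKO ratios run from 0.232 to 0.275 and WT ratios from 0.279 to 0.308, and the number of distinct sequences follows the number of reads in both genotypes.

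A miRNA is read as several sequences that differ at their ends or by single bases, and the tables count these distinct sequences per reference. For 3p there were 224, 213 and 297 distinct sequences in the EKO libraries, against 293, 300 and 348 in the WT libraries. For 5p there were 90, 117 and 131 in the EKO libraries, against 159, 166 and 204 in the WT libraries. The groups overlapped for 3p and not for 5p, and 187 of the 575 miRNAs tested (32.5%) had non-overlapping, lower numbers in EKO in the same way. Over all mature references the EKO libraries held 48275, 54098 and 57650 distinct sequences, against 62650, 62572 and 67508 in the WT libraries, so all EKO libraries were lower as a whole. The mean was 245 ± 45.7 in EKO and 314 ± 29.9 in WT for 3p (two-sided exact permutation p = 0.2, SD, n = 3 each). For 5p it was 113 ± 20.8 in EKO and 176 ± 24.2 in WT (exact permutation p = 0.1, the smallest possible, SD, n = 3 each). Per 1000 reads of the arm the direction turned. This rate was lowest for both arms in WT replicate 3 (7.08 for 3p and 14.1 for 5p), the library with the most reads of each. The part of read number in the rates was not tested. The 3p arm had 9.34 ± 0.556 distinct sequences per 1000 reads in EKO and 7.95 ± 0.852 in WT (exact permutation p = 0.2, n = 3 each). The 5p arm had 16.9 ± 1.99 in EKO and 15.1 ± 0.883 in WT (exact permutation p = 0.3, n = 3 each). Over all libraries, the median of the 251 references averaging at least 10 CPM was 24.5 distinct sequences per 1000 reads, above both arms, which the tables give at 15.6 for 5p and 8.40 for 3p. The reads themselves were not analysed here, so forms with a shifted seed were not counted.

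The miRNAs whose values over the 6 libraries lay nearest to each arm were found by the root mean square difference of log2 CPM, centred on each miRNA's mean, among 250 others averaging at least 10 CPM. Nearest to 5p were miR-652-3p at 0.06, miR-98-5p at 0.08 and let-7g-5p at 0.10, against a median of 0.44 over the 250. Nearest to 3p were miR-98-5p at 0.08, miR-22-3p at 0.09 and miR-484 at 0.12, against a median of 0.40. The arms differed from each other by 0.13, which made 5p the fourth nearest to 3p, and 3p the 14th nearest to 5p. Levels of miR-652-3p were 101, 105 and 153 CPM in the EKO libraries, against 156, 167 and 223 CPM in the WT libraries. Levels of miR-98-5p, a relative of let-7, were 1223, 1025 and 1536 CPM in the EKO libraries, against 1716, 1692 and 2244 CPM in the WT libraries. As for miR-142a, replicate 3 was the highest library of each genotype for both, and neither passed the test (adjusted p = 0.158 and 0.105, edgeR).

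Other miRNAs of the blood lineages did not share 1 direction with miR-142a. The list held 18 names, found as 16 references, since miR-486a-5p and miR-486b-5p are counted jointly and miR-144-3p, an erythroid miRNA, had no reads listed. Of the 15 references tested, 10 had lower and 5 higher values in EKO, at a median of -0.23 on the log2 scale, and 0 passed. At an unadjusted edgeR p under 0.05, 3 were lower and 2 higher, where all tested miRNAs had 13% lower and 8.35% higher. DESeq2 called 4 of the list, 2 in each direction, where it called 8.69% of all miRNAs lower and 7.62% higher. With 15 references, each of these counts lies within about 1 reference of the share over all miRNAs. The groups did not overlap for 5 lower and 3 higher ones, where the series had 18.8% of miRNAs lower and 12.5% higher in this way.

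The myeloid miR-223 has both arms in this list, and they had opposite signs. miR-223-3p had 242, 260.3 and 275 CPM in the EKO libraries, against 343, 359 and 495 CPM in the WT libraries (log2 fold change -0.62 ± 0.17 SE, adjusted p = 0.0848, edgeR). miR-223-5p had 2854, 2844 and 2669 CPM in the EKO libraries, against 2144, 2060.4 and 1867 CPM in the WT libraries (log2 fold change 0.46 ± 0.10 SE, adjusted p = 0.0772, edgeR). In miR-142a both arms had the same sign, lower in EKO. The lymphoid miR-181b-5p averaged 292 ± 17.5 CPM in EKO against 401 ± 34.8 CPM in WT (SD, n = 3 each; log2 fold change -0.46, adjusted p = 0.0853, edgeR). Its relatives miR-181a-5p, with a log2 fold change of -0.28, and miR-181d-5p, with 0.13, had groups that overlapped. The Evl-intron miR-342-5p averaged 345 ± 59.9 CPM in EKO against 231 ± 35.6 CPM in WT (SD, n = 3 each; log2 fold change 0.58, adjusted p = 0.105, edgeR), while its opposite arm miR-342-3p had a log2 fold change of -0.23.

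The other listed references above 10 CPM did not pass the test either. miR-155-5p, which Toll-like receptor signals induce, had 7.95, 17.1 and 29.99 CPM in the EKO libraries, against 34.2, 35.5 and 31.6 CPM in the WT libraries (log2 fold change -0.88 ± 0.44 SE, adjusted p = 0.324, edgeR). miR-146a-5p, which restrains those signals, had a log2 fold change of 0.07 ± 0.15, the erythroid entry miR-486a-5p/miR-486b-5p one of -0.14 ± 0.18, and miR-126a-3p, from the Egfl7 intron, one of -0.16 ± 0.16 (SE). By mean level, only miR-223-5p and miR-146a-5p of the list stood above miR-142a-3p.

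**Figure D5:**
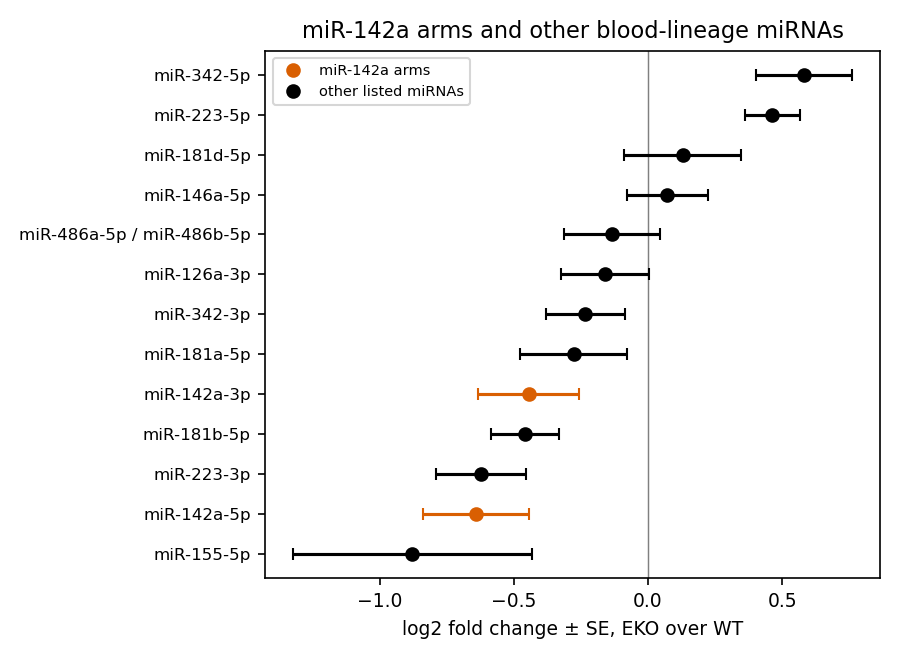
Log2 fold change ± SE, EKO over WT (edgeR), of the miR-142a arms (orange) and the 11 other listed blood-lineage references averaging at least 10 CPM (black). Values run from -0.88 for miR-155-5p to 0.58 for miR-342-5p, and none passed an adjusted p of 0.05.

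Because miR-142 is made by many blood cells, markers of other cells in a marrow culture were set beside it, as sums of plain CPM. The 3 lymphoid miRNAs, led by miR-181b-5p, summed to 489 to 592 CPM in EKO and 684 to 801 CPM in WT, and all 3 had a negative log2 fold change. Of these, miR-150-5p added little to the sum. It had 2.77, 2.82 and 5.30 TMM-scaled CPM in the EKO libraries, against 5.91, 5.22 and 4.38 in the WT libraries (log2 fold change -0.51 ± 0.64 SE, adjusted p = 0.798, edgeR). Groups overlapped for miR-150-5p and for miR-181a-5p. The relative miR-181d-5p (log2 fold change 0.13 ± 0.22 SE) was not in this marker list and was not lower. Also outside the list and not tested, miR-181c-5p was near the detection limit. It had 0, 0.20 and 3.06 TMM-scaled CPM in the EKO libraries, against 0, 0 and 0.23 in the WT libraries. The miR-223 arms summed to 2900 to 3143 CPM in EKO and 2355 to 2507 CPM in WT, with 1 of 2 lower in EKO. The erythroid list summed to 117 to 145 CPM in EKO and 127 to 159.8 CPM in WT, led by the joint entry miR-486a-5p/miR-486b-5p. Of its 2 tested references 1 was lower in EKO, and miR-144-3p was at 0 in all 6 libraries. The other tested reference, miR-451a, was near the detection limit and higher in EKO. It had 6.32, 5.25 and 1.26 TMM-scaled CPM in the EKO libraries, against 0, 0 and 0.56 in the WT libraries (log2 fold change 4.49 ± 2.04 SE, adjusted p = 0.260, edgeR). The Mrc1-intron miR-511 arms, a macrophage marker, summed to 0.0759 to 1.62 CPM in EKO and 4.97 to 7.41 CPM in WT, so this marker was nearly absent in both and lower in EKO without passing the test. Stromal miRNAs, all 6 of them detected, summed to 3616 to 3934 CPM in EKO and 3712 to 3834 CPM in WT, led by miR-140-3p, with 3 of 5 tested lower in EKO. Of the 6, only miR-140-3p was among the 221 miRNAs averaging at least 10 CPM with a sequence. The sum need not reflect the other stromal miRNAs. The 7 epithelial miRNAs summed to 116 to 183 CPM in EKO and 147 to 159 CPM in WT, with 2 of 6 tested lower in EKO. The muscle and liver list, led by miR-122-5p and with 0 of 2 tested lower in EKO, summed to 105 to 160.3 CPM in EKO and 48.2 to 62.1 CPM in WT, with miR-133a-3p at 0 in all libraries. In these marker lists, lower gives the sign of the edgeR log2 fold change, and 0 of the miRNAs passed the test. The part of these cells in the lower miR-142a values was not tested.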

How the data were processed

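Small RNA libraries of 3 EKO and 3 WT macrophage cultures were analysed from 1 deposited table each. Per the labels' protocols, RNA came from RNeasy Mini columns, which can lose small RNA, and an NEB small RNA kit was used. The submitters' processing notes name mm9, with aligner and counter not given in the sources used here. Tables hold, per the file headers, the count of total reads, the count of distinct read sequences, an estimated count in which the authors divided reads with several matches, and a barcode count. The deposited barcode values, other than read counts, sum to 0.

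The deposited estimated counts were rounded to whole numbers, and a reference missing from a table was taken as 0. The 73 stem-loop references (0.00127% to 0.00161% of reads) were left out. All mature references were fitted with edgeR 4.0.16 (R 4.3.3, filterByExpr, TMM, glmQLFit and glmQLFTest on genotype) and Benjamini-Hochberg adjustment, with 0.05 as threshold. The SE is the log2 fold change divided by the square root of F. Arm ratios, log2 of (5p + 0.5)/(3p + 0.5) counts, were fitted with limma 3.58.1 over all hairpins whose arms both passed the filter. Single values used two-sided exact permutation tests. The GC trend was a robust local regression (span 0.75) of log2 CPM on mature GC content, removed as an offset; 221 of the 251 miRNAs (88.0%) had a sequence and the others were given the median. Alternatives used DESeq2 1.42.0, limma-voom, other scaling, filters and counts, thinning, each library left out, and a replicate block. The hairpin was folded with RNAfold 2.7.2.

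On counts simulated for EKO against WT, edgeR found 84% of 100 miRNAs with a 2-fold and 100% of 98 with a 4-fold change among 690 tested, with 5 false calls. For arm ratios limma found 36.4% of 33 with a 2-fold and 100% of 29 with a 4-fold change among 153, with 1 false call. The simulation gave all miRNAs the same variation beyond read-counting error and no GC trend. These shares therefore do not give the detection rate in the real libraries, where 575 miRNAs and 118 hairpins were tested.

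The miRNAs named are both arms, other miR-142 references, miRNAs sharing a seed, the blood-lineage list from 10 CPM upwards, and the 3 nearest in pattern to each arm. Beside the marker lists further miRNAs are named, some of them below 10 CPM. The members and lists were chosen with earlier results of these data known.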

Additional observations from a re-analysis of the deposited data

How the results depend on the processing

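Of the alternatives, 16 of 17 left 3p with a negative log2 fold change and all 17 did so for 5p. The exception was removal of the GC trend, with 0.055 for 3p. An adjusted p under 0.05 was reached in 5 of the 17 for 5p and in 1 for 3p. The 5p arm passed with DESeq2 (-0.56, adjusted p = 0.0355), with no filter on low counts (-0.62, adjusted p = 0.0487, edgeR), when refitted from a mean of 10 CPM upwards (-0.62, adjusted p = 0.0496, edgeR) and without EKO replicate 3. Both arms passed with the replicate block, given below. Leaving out each library gave -0.85 to -0.50 for 5p (adjusted p = 0.0370 to 0.348, edgeR) and -0.63 to -0.29 for 3p (adjusted p = 0.0690 to 0.624, edgeR). Each such fit has 2 libraries in 1 group and 3 in the other. The cause of these shifts was not tested.

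Over all miRNAs, edgeR with TMM and filterByExpr called 0 of 575. DESeq2 called 92 of 564 given an adjusted p (43 higher and 49 lower), and limma-voom 32 of 575 (9 and 23). With no filter on low counts edgeR called 52 of 911 (24 and 28). A floor of 10 CPM on the mean gave 59 of 251 (27 and 32), and removal of the GC trend 46 of 251 (33 and 13). Leaving out a library gave 0 to 45 calls, the 45 among 634 tested without EKO replicate 3. Of the blood-lineage list DESeq2 called 4 of 15 tested, a mean of at least 10 CPM 3 of 11, and leaving out a library 0 to 1 of 15. These counts stand beside the calls over all miRNAs given above. The log2 change of the 5p to 3p ratio, EKO over WT, stayed between -0.25 and -0.13 in all 11 alternatives (adjusted p = 0.386 to 0.905, limma or edgeR). The summed level, EKO minus WT, was -475 to -256.5 CPM without each library in turn. Distinct sequences turned to 1.39 (3p) and 1.72 (5p) more per 1000 reads in EKO.

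Whether libraries with the same replicate number are paired is not known. Over the miRNAs tested, their deviations from the genotype mean had correlations of -0.02, -0.03 and 0.05. Each miRNA counts alike in these correlations, those with few reads included, so they cannot settle whether a pairing exists. With the replicate block, 3p (-0.46, adjusted p = 0.0312) and 5p (-0.66, adjusted p = 0.00910) passed in edgeR. The SE was 0.12 for 3p and 0.14 for 5p with the block, against 0.19 and 0.20 without it. The fit with the block called 62 of 575 miRNAs in all, 26 higher and 36 lower, and 4 of the 15 listed references tested.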
